A study of Mus musculus with 2 samples.

Results

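The genes described here are 40 cell cycle and DNA replication genes, taken as a list of symbols and grouped by role: 16 genes of S phase and replication, 22 genes of mitosis and its regulators, and the D-type cyclins Ccnd1 and Ccnd2. A gene entered where a probe set of the array was annotated to its symbol alone, and the probe set with the highest mean of the arrays stood for the gene. This gave 39 of the 40 genes, out of 18194 genes on the array, and Ccnb1 was not analysed here. Messenger RNA came from the proximal section of the intestine of chow-fed C57BL/6 mice, with a germline deletion of Cd36 (CD36KO) or wild type (WT). RNA from 3 animals was pooled per genotype and hybridised to 1 Affymetrix array, so each genotype is 1 measurement. No difference below could be set against variation between animals or arrays, no test was run, and having 1 array per genotype limits the precision. CD36 takes up long-chain fatty acids at the cell membrane, and a germline deletion removes it from every cell of the mouse.

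In the small intestine, cells divide in the crypts and stop dividing as they move onto the villi. D-type cyclins with Cdk4 and Cdk6 release E2F factors from the pocket proteins, and E2F factors switch on genes for nucleotide synthesis and replication. Later in the cycle FoxM1 and the B-Myb complex switch on the genes that build the spindle, check chromosome attachment and separate the daughter cells. Messenger RNA of these genes in a whole piece of gut follows the number of dividing cells as well as the RNA in each, and fewer cells and less RNA per cell cannot be told apart in such samples.

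At the probe set of highest mean, most cell cycle genes differed by less than 1.5-fold between the pools, with Ccnd1 as the clearest exception. The median of the mitotic genes lay above 0, and that of the S phase genes moved up with another choice of probe set, given below. Values are the deposited log2 values, and each difference is CD36KO minus WT. Of the 39 measured genes, 38 reached the expression filter, a log2 value of 4.51 in at least 1 pool (the median of the higher value over all probe sets), and Tyms did not. Of the 38, 3 exceeded WT by at least 1.5-fold (Ccnd1, Aurkb and Kif20a, the last through a WT value below the filter), 0 lay 1.5-fold or more below WT, and 0 exceeded it 2-fold. Of all 11981 genes that passed the same filter, 5.31% exceeded WT by 1.5-fold, 3.31% lay 1.5-fold or more below it and 1.61% exceeded it 2-fold. The median difference was 0.06 over 15 S phase genes, 0.22 over 21 mitotic genes and 0.54 over the 2 D-type cyclins, beside -0.0059 over all genes. A difference above 0 was seen for 8 of the 15 S phase genes and 14 of the 21 mitotic genes, against 48.8% of all genes.

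**Figure D1:**
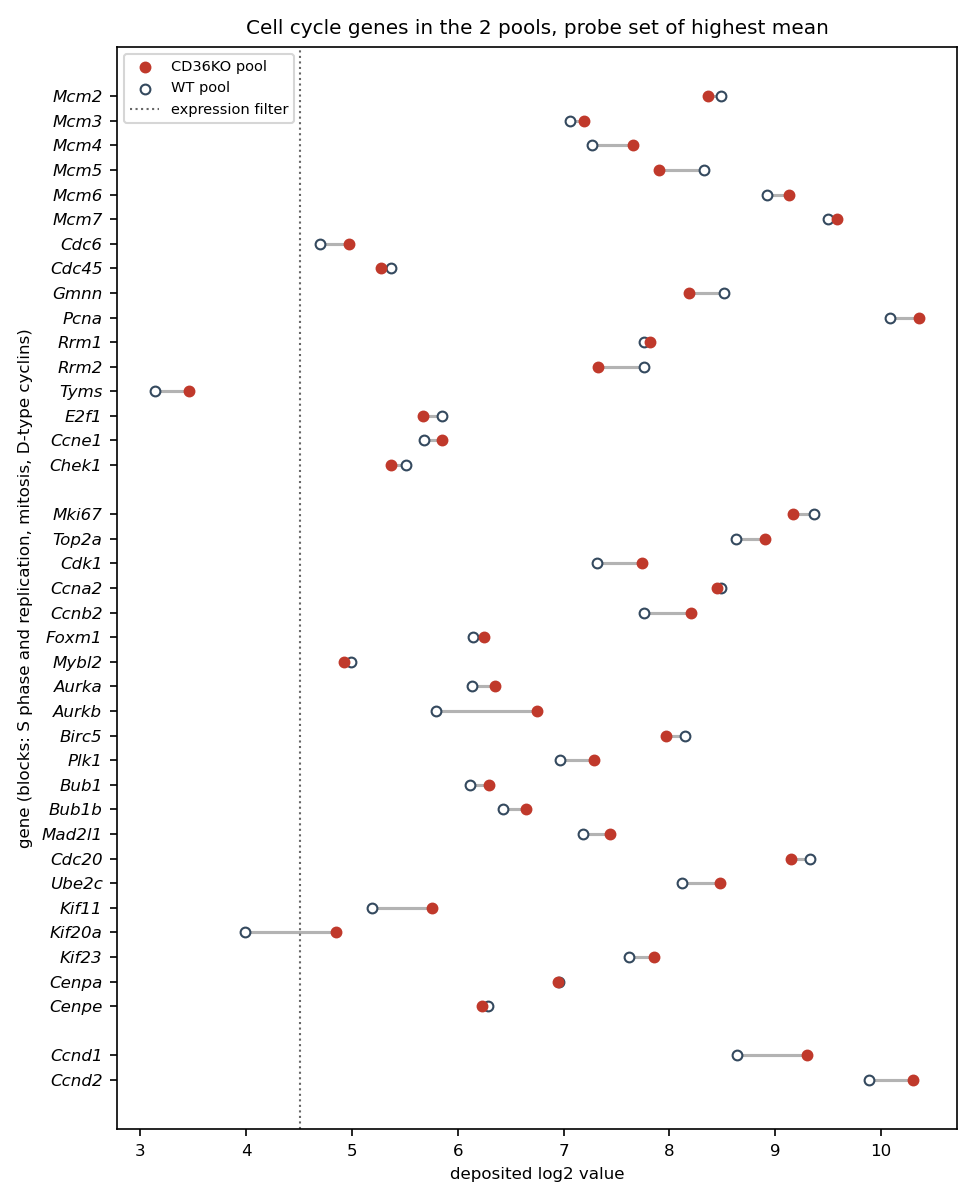
Deposited log2 value (horizontal axis) of each measured cell cycle gene (vertical axis, in blocks of S phase, mitotic and D-type cyclin genes) in the CD36KO pool (filled) and the WT pool (open), 1 array each, with the expression filter of 4.51 as a dotted line. Most pairs lie close together, Aurkb, Kif20a and Ccnd1 lie furthest apart, and Tyms lies below the filter in both pools.

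Some facts of the arrays bear on all of this. Cd36 read 6.02 in the CD36KO pool and 7.68 in the WT pool, and its other 2 probe sets differed by -1.83 and -1.22. The sources used here do not say where these probe sets lie relative to the deleted part. All 11 measured markers of villus enterocytes, the main cell of the labelled tissue, were above the filter, with median log2 levels of 12.5 in CD36KO and 12.7 in WT. Markers of gut segment, of Paneth cells and of pancreas had medians further from 0 than the cell cycle genes. Distal segment genes had a median of 1.82, and 9 of 10 passed 1.5-fold, with Fabp6 at 6.67, Fgf15 at 4.11 (from a WT value below the filter), Tmigd1 at 3.56 and Guca2a at 2.08. Proximal segment genes, of which Lct and Apoa4 are also villus markers, had a median of -0.94, and 7 of 11 passed it, with Pdx1 at -1.26, Trpv6 at -1.16, Slc40a1 at -1.10 and Ces1f at -1.09. The median was 2.18 for Paneth cell markers, 4 of 5 of which passed 1.5-fold (Pla2g2a 2.82, Mmp7 2.38, Ang4 2.18 and Itln1 1.63). It was 1.93 for pancreas acinar genes, and 9 of 9 passed 1.5-fold (Pnliprp2 3.11, Cpa1 2.40, Cpb1 2.11 and Ctrb1 1.99 among them). The control RNAs were less biased to their 3' ends in CD36KO: the 3' minus 5' log2 difference of beta-actin was 1.34 in CD36KO and 2.28 in WT, and that of GAPDH 0.71 in CD36KO and 1.28 in WT. The part of tissue makeup and of RNA ends in the differences below was not tested.

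The promoters of S phase and mitotic genes differed in the motifs they held, and a few are printed to show this. RefSeq promoter windows of build GRCm38.p6 (250 bases before to 50 after the start of the gene) were found for 32 of the 40 genes, and a gene with several windows was counted where any held a match. They were searched on both strands for the CHR element, through which the MuvB complex acts on mitotic genes, spelled TTTGAA or, in its variant form, TTCGAA. They were also searched for an E2F site, spelled TTTNNCGC, and for the CCAAT box that binds NF-Y. A CHR match lay in 13 of 18 mitotic promoters and in 3 of 14 S phase promoters, beside 21.7% of all 27025 genes with a window. An E2F match lay in 6 of 14 S phase promoters and 1 of 18 mitotic promoters, that of Cdk1, beside 5.93% of all genes. A CCAAT box lay in 15 of 18 mitotic and 9 of 14 S phase promoters, beside 41.1% of all genes. All 13 mitotic promoters with a CHR match also held a CCAAT box, a pair found in 9.65% of all genes. Further mitotic genes, listed by function and not among the 40, gave a CHR match in 33 of 45, and further replication genes in 9 of 37. The contrast in E2F matches was smaller there, with 10 of 45 further mitotic genes and 13 of 37 further replication genes. These matches are descriptions of the letters and not binding sites. The stretches below run 5′ to 3′ on the gene's strand from base -180 to base 30, counted from the start of the gene, and capitals mark every match of the motifs, overlapping matches joined. A motif on the opposite strand reads ATTGG for the NF-Y box, TTCAAA for the CHR element and GCGNNAAA for the E2F site.
Ccnb2 (chr9:70421525-70421734, minus strand): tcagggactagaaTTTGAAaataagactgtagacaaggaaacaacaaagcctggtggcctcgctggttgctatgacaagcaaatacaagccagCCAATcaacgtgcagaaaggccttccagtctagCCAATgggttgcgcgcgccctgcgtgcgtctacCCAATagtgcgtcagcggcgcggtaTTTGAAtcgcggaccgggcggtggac
Cdc20 (chr4:118437314-118437523, minus strand): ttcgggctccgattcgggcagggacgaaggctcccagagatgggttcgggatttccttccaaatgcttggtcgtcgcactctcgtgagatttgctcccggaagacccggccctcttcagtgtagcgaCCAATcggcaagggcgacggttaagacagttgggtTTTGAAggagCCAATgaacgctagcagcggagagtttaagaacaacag
Kif11 (chr19:37376202-37376411, plus strand): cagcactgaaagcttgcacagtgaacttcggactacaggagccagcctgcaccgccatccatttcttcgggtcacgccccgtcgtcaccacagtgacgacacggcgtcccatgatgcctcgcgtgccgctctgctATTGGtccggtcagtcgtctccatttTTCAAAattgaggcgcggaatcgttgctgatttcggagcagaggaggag
Mcm5 (chr8:75109329-75109538, plus strand): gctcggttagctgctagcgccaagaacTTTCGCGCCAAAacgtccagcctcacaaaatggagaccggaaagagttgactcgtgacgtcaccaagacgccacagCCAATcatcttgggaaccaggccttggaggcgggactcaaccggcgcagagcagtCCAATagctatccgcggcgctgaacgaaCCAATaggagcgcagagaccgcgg
Mcm6 (chr1:128359676-128359885, minus strand): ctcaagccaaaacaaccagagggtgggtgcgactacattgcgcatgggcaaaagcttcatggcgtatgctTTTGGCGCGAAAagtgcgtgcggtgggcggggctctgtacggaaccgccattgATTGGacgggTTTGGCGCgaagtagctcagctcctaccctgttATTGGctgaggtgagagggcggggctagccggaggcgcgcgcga
In the mitotic genes the CHR match nearest the start began at base 5 in Ccnb2, base -18 in Cdc20 and base -19 in Kif11, with a CCAAT box upstream of it in each. In Mcm5 2 overlapping E2F matches began at bases -153 and -149, and in Mcm6 E2F matches began at bases -110, -106 and -47. The median difference was 0.24 over the 13 mitotic genes with a CHR match and -0.06 over the 4 measured ones without. Those without were Birc5, Cenpe, Mad2l1 and Mybl2, and the ranges overlapped, from -0.19 to 0.57 and from -0.18 to 0.26. Aurkb and Kif20a, the mitotic genes of largest difference, had no window, like Foxm1 and Ccna2, and fell in neither group. Over S phase genes above the filter the median was 0.13 for 5 with an E2F match and -0.11 for 8 without. These ranges were nearly the same, from -0.43 to 0.27 in both groups. The values are those of the sets of highest mean. With gene-specific sets Mcm5, which has an E2F match, and Mcm2 and Rrm2, which have none, changed sign. The part of the motifs in the differences was not tested.

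**Figure D2:**
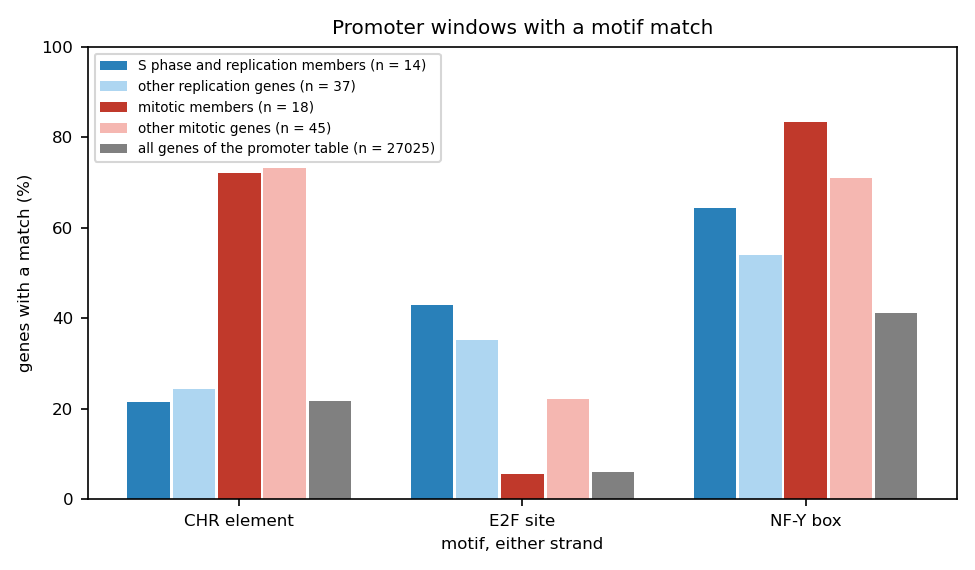
Percentage of genes (vertical axis) whose promoter window of 300 bases held a match to each motif on either strand (horizontal axis), by gene list, with the number of genes with a window in the legend. The CHR element was found in 72.2% of the mitotic genes and 73.3% of the further mitotic genes, and E2F sites in 42.9% of the S phase genes, beside 21.7% and 5.93% of all genes.

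Of the D-type cyclins, Ccnd1 was higher in the CD36KO pool at every probe set, and Ccnd2 at some but not all of its sets. Ccnd1, which links growth signals to Cdk4 and Cdk6, read 9.30 in CD36KO and 8.64 in WT, a 1.59-fold higher value. Its other 2 probe sets read 8.43 and 6.99 in CD36KO, against 7.35 and 6.10 in WT, differences of 1.08 and 0.88. Ccnd1 was thus at least 1.5-fold higher at each of its 3 probe sets. Ccnd2, its close relative, read 10.3 in CD36KO and 9.88 in WT, a difference of 0.42. Of its 5 probe sets above the filter, 3 were higher by 0.28 to 0.51 and 2 differed by -0.06. Other drivers of G1, a list of 9 genes, had 0 genes past 1.5-fold in either direction and a median of 0.08. Cdk4, the kinase partner of the D-type cyclins, came closest, at 8.27 in CD36KO and 7.81 in WT, with differences of 0.47, 0.41 and 0.34 at its 3 probe sets. Ccnd3 differed by 0.34, with -0.20 at another probe set above the filter, and Cdk6 by -0.23, with 0.21 at another.

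Markers of connective tissue and muscle were higher in the same pool as Ccnd1. Fibroblast and muscle markers were higher in CD36KO by a median of 0.84, with 6 of 9 past 1.5-fold, and the log2 of their summed signal was 13.6 in CD36KO and 13.0 in WT. Lum and Dcn, proteoglycans of connective tissue, were 2.88-fold and 2.40-fold higher, and the collagens Col1a1 and Col3a1 2.58-fold (0.06 at another probe set) and 2.24-fold. No marker of that list was below the filter. Which cells carried the Ccnd1 message is not shown by a whole piece of gut, and the part of connective tissue in its difference was not tested.

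At the sets of highest mean, the 6 subunits of the replicative helicase were all within 1.5-fold. Mcm2 to Mcm7 form the ring that is loaded on origins in G1 and unwinds DNA in S phase. Mcm4 differed most upward, at 7.65 in CD36KO and 7.27 in WT, a difference of 0.38. Mcm5 differed most downward, at 7.90 in CD36KO and 8.33 in WT, a difference of -0.43. Mcm6 (0.21), Mcm3 (0.13), Mcm7 (0.09) and Mcm2 (-0.12) lay between them, and the median of the 6 was 0.11.

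These helicase values depended on the probe set. Mcm5 read -0.43 at the set in use and 0.51 at its next, where the values were 6.85 in CD36KO and 6.34 in WT. Mcm3 had differences of 0.13, 0.21 and 0.67 at its 3 sets above the filter, and Mcm7 had 0.09, 0.13, 0.60 and -0.26 at its 4. Mcm2, at -0.12, had a further set at 0.27. For Mcm4 and Mcm6 the further set above the filter differed by -0.08 and -0.09. Of the 6 subunits, 5 had sets above the filter that disagreed in sign, and Mcm3 alone did not. At the gene-specific set of highest mean, an alternative added after seeing the data, all 6 were higher in CD36KO, by 0.21 (Mcm6) to 0.67 (Mcm3), and Mcm3 and Mcm7 (0.60) passed 1.5-fold.

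Factors that load or fire origins were also within 1.5-fold. Cdc6, which brings the helicase to origins, read 4.97 in CD36KO and 4.70 in WT. Cdc45, which activates the loaded helicase, read 5.27 in CD36KO and 5.37 in WT, a difference of -0.09, with 0.28 at its other set. Gmnn, geminin, which blocks a further round of loading, read 8.19 in CD36KO and 8.52 in WT, a difference of -0.33 at its single set.

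Pcna, the sliding clamp of the polymerases, read 10.4 in CD36KO and 10.1 in WT, a difference of 0.27. Rrm1 and Rrm2, the subunits of ribonucleotide reductase, which makes deoxynucleotides, differed by 0.06 and -0.43. Rrm1 had a further set above the filter at 0.85, where it read 6.00 in CD36KO and 5.15 in WT. Rrm2 had 2 further sets above the filter, at 0.17 and 0.40, both opposite in sign to the set in use. Tyms, thymidylate synthase, was at or below 3.46 in both pools at all 4 sets, so no difference could be read from it.

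The regulators of entry into S phase differed little. E2f1, an activating E2F factor, differed by -0.17 and by -0.02 at its other set above the filter. Ccne1, cyclin E1, which drives entry into S phase with Cdk2, differed by 0.17 and -0.08 at its 2 sets. Chek1, the kinase that halts the cycle when replication stalls, read 5.36 in CD36KO and 5.51 in WT, and its other 4 sets were below the filter.

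Among the mitotic genes, Mki67, the antigen used most to count dividing cells, read 9.17 in CD36KO and 9.37 in WT, a difference of -0.19 at its single set. Top2a, the topoisomerase that untangles chromosomes, read 8.90 in CD36KO and 8.63 in WT, a difference of 0.27, with -0.38 at another set above the filter. At the sets of highest mean these common markers of dividing cells differed in opposite directions, and at the other set of Top2a they did not. Each difference was less than 1.5-fold.

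Cdk1 and Ccnb2, the kinase and a cyclin that start mitosis, were both higher in CD36KO by less than 1.5-fold. Cdk1 read 7.74 in CD36KO and 7.32 in WT, a 1.34-fold higher value. Ccnb2, whose promoter is printed above, read 8.20 in CD36KO and 7.76 in WT, a 1.37-fold higher value. Each has a single probe set. Ccna2, cyclin A2, which acts in S phase and early mitosis, differed by -0.04 at one set and 0.44 at the other. At the sets of highest mean the transcription factors of this phase differed little, with Foxm1 at 0.11 and Mybl2 at -0.07. At its other sets above the filter Foxm1 differed by 0.04 and 0.46.

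The chromosomal passenger complex held the widest difference of the mitotic genes. Aurkb, its kinase, read 6.75 in CD36KO and 5.80 in WT, a 1.93-fold higher value, and its other set read 5.53 in CD36KO and 5.12 in WT, a difference of 0.40. Both sets are of the kinds whose probes can also match other transcripts. Birc5, survivin, which is part of the same complex, read 7.97 in CD36KO and 8.15 in WT, a difference of -0.18. Incenp, the scaffold of the complex, and Cdca8, borealin, which are no members and were named after their values were seen, differed by -0.29 (0.62 and -0.63 at other sets above the filter) and 0.14 (0.13 and 0.54 at other sets). The centrosomal kinases Aurka and Plk1 differed by 0.22 and 0.32.

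Genes of the spindle checkpoint and of anaphase were within 1.5-fold, with a median of 0.22. Mad2l1, Bub1b and Bub1, which hold back anaphase until every chromosome is attached, were higher by 0.26, 0.22 and 0.18. Ube2c, the ubiquitin-conjugating enzyme of the anaphase-promoting complex, read 8.48 in CD36KO and 8.11 in WT, a difference of 0.37. Cdc20, which activates that complex, differed by -0.19 at the set in use, and by 0.50 and 0.07 at its others.

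At the sets of highest mean, motors and centromere proteins ran from nearly level to 1.81-fold higher. Kif20a, a kinesin of cytokinesis, read 4.85 in CD36KO and 3.99 in WT. It passed the filter through the CD36KO pool alone, and its 1.81-fold difference depends on a WT value below the filter, without a detection call. Kif11, the motor that separates the spindle poles, read 5.76 in CD36KO and 5.19 in WT, a 1.48-fold higher value, and 1.76-fold higher at its other set above the filter. Kif23, a further kinesin of cytokinesis, was higher by 0.24. Cenpa, the centromere histone, and Cenpe, the kinetochore motor, differed by -0.01 and -0.06, and Cenpa by -0.18 at another set above the filter.

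The contrast between S phase and mitosis changed with the choice of probe set. With the set of highest mean, the S phase median minus the mitotic median was -0.17. Affymetrix sets whose names end in s or x hold probes that match several transcripts or share sequence with others, and they stood for 7 S phase and 3 mitotic genes. With the remaining sets alone, an alternative added after seeing the data, the S phase median was 0.24 over 14 genes and the mitotic median 0.23 over 20 genes, a gap of 0.0092. Mcm2, Mcm5, Rrm2 and Cdc20 then changed to a difference above 0 and Ccne1 to one below 0. Mcm3 and Mcm7 then passed 1.5-fold, and Aurkb dropped out as it has no such set. By this choice 4 of 36 members exceeded WT by 1.5-fold and 0 lay that far below it, beside 5.92% and 3.11% of all genes, and the median of all genes was 0.0087.

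The same split by kind of probe set was seen across all sets of the members above the filter. The 49 gene-specific sets had a median difference of 0.27, and 36 of them were above 0. The 20 sets with shared probes had a median of -0.01, and 10 were above 0. Over all named genes these medians were 0.01 and -0.06, and 52.0% of the gene-specific sets and 42.4% of the sets with shared probes were above 0. Among the 21 members with at least 2 sets above the filter, the 2 of highest mean had opposite signs in 11, against 42.7% of the 4801 such genes on the array. The sources used here do not place the sets along their transcripts, and the part of the 3' bias in this split was not tested.

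**Figure D3:**
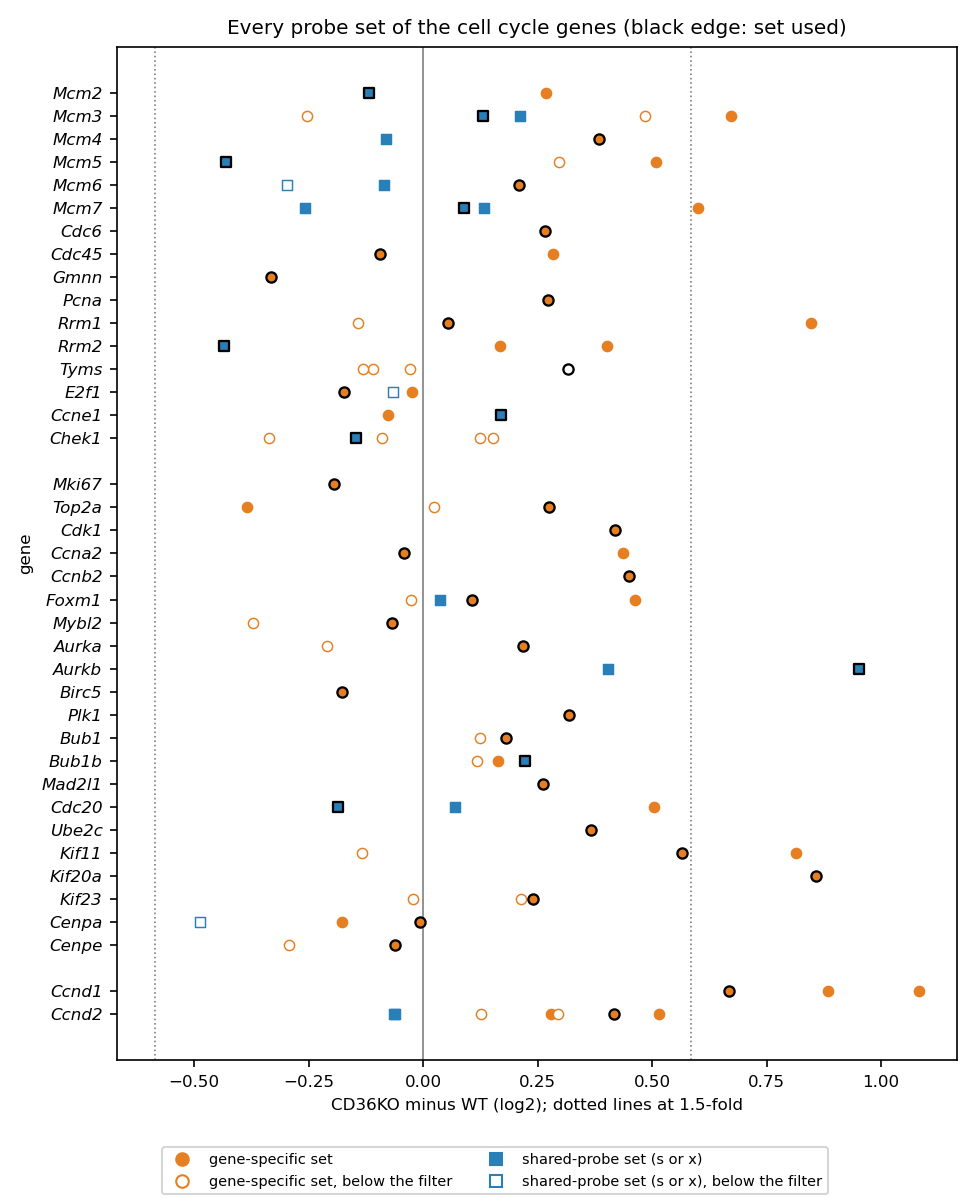
CD36KO minus WT difference on the log2 scale (horizontal axis) at every probe set of each measured cell cycle gene (vertical axis, in blocks of S phase, mitotic and D-type cyclin genes), with circles for gene-specific sets, squares for sets with shared probes, open symbols below the filter and a black edge for the set in use. The sets of Mcm5, Mcm7, Rrm2 and Cdc20 lie on both sides of 0, and the 3 sets of Ccnd1 all lie right of the 1.5-fold line.

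Most genes of the same pathway outside the 40 differed by less than 1.5-fold, as did most genes on the array. Of all genes that passed the filter, 5.31% exceeded WT by 1.5-fold and 3.31% lay that far below it. Of 43 further replication genes that passed the filter, 2 exceeded WT by 1.5-fold and 0 lay that far below it, and the median was 0.06. These were Gins4 (1.71-fold), a subunit of the helicase cofactor GINS, and Rfc3 (1.68-fold, 0.61 at another set), a subunit of the clamp loader. Of 48 further mitotic genes that passed it, 1 exceeded WT by 1.5-fold and 1 lay that far below it, and the median was 0.05. These were Racgap1 (1.69-fold higher, 0.52 at another set above the filter), which acts in cytokinesis with Kif23, and Spc25 (a difference of -0.59), a subunit of the kinetochore complex Ndc80. The median of 0.22 over the mitotic members compares with 0.05 over these further mitotic genes. With gene-specific sets the medians were 0.23 over the mitotic members and 0.12 over the further mitotic genes. They were 0.24 over the S phase members and 0.12 over the further replication genes. With these sets 3 of 42 further replication genes and 2 of 47 further mitotic genes exceeded WT by 1.5-fold, beside 5.92% of all genes. In the other direction 0 and 1 lay that far below it, beside 3.11%.

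Brakes of the cycle were nearly level at the set of highest mean. Of 15 CDK inhibitors, pocket proteins and related repressors above the filter, 0 passed 1.5-fold in either direction at the set of highest mean, and the median was -0.10. E2f5, a repressor E2F named after its values were seen, differed by 0.27 at that set and by 0.40 and 1.19 at its other sets, all above the filter. The largest differences were those of the inhibitors Cdkn2c (6.68 in CD36KO and 6.32 in WT) and Cdkn1b (7.12 in CD36KO and 7.44 in WT). Cdkn1a, named after its values were seen as the p53-induced inhibitor, read 10.3 in CD36KO and 10.5 in WT. At its other set, also above the filter, Cdkn1a differed by 0.22, opposite in sign.

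Markers of dividing and of other cells of the gut gave the following values beside these genes. The median of the crypt stem cell markers was 0.09, and 1 of 12 exceeded WT by 1.5-fold, Lgr5, the receptor for R-spondins, at 6.27 in CD36KO and 5.40 in WT with -0.10 at a set below the filter. Axin2, a Wnt target, followed at 7.48 in CD36KO and 6.89 in WT, while Rnf43 and Znrf3 each differed by -0.49. For villus enterocyte markers the median was -0.04 and 0 of 11 passed 1.5-fold, Lct (-0.48) and Alpi (-0.37) furthest from 0. B and germinal centre cell markers had a median of 0.31 over 7 genes, 6 of them above 0, and the log2 of their summed signal was 9.38 in CD36KO and 9.06 in WT. Ms4a1, the B cell antigen CD20, was 1.94-fold higher, and Fcer2a was the 1 of 8 measured below the filter. T cell markers had a median of 0.0048 over 6 genes, with Cd247 (0.45) and Cd8a (-0.16) furthest from 0. The part of lymphoid cells in the mitotic differences was not tested.

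**Figure D4:**
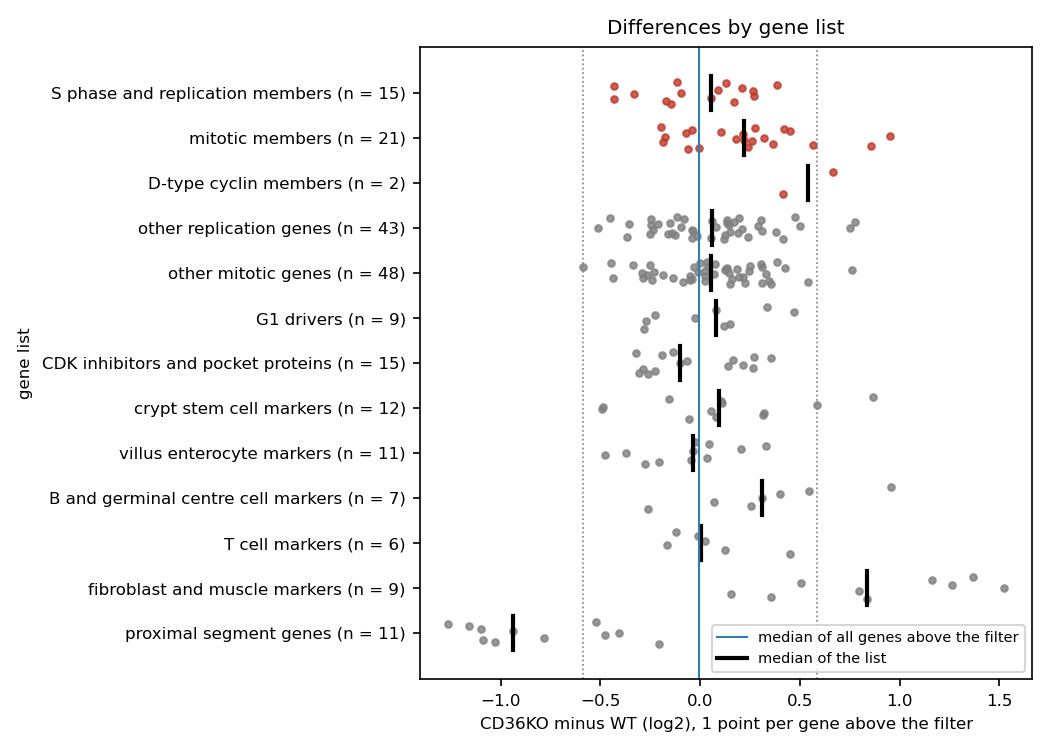
CD36KO minus WT difference on the log2 scale (horizontal axis) of each gene above the filter, by gene list (vertical axis), with the list's median as a black bar, the median of all genes as a blue line and 1.5-fold as dotted lines. Cell cycle lists other than the D-type cyclins had medians from -0.10 to 0.22, and the D-type cyclins had 0.54. Fibroblast and muscle markers (0.84) and proximal segment genes (-0.94) stood further from 0.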

How the data were processed

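The authors deposited 1 table of log2 expression values for 45101 probe sets on 2 arrays. They reach 14.2 with a median of 4.38 on both arrays, which fits base 2 alone. The sources used here name no summarization or normalization, and there are no detection calls. Per the labels' protocols, TRIzol RNA of 3 animals was pooled per genotype and cRNA was made from 100 ng. Probe sets were named from the platform annotation: 34958 had 1 symbol, 932 several and 9211 none here. RefSeq (GRCm38.p6) matched 34754 and changed 0 symbols.

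Differences are CD36KO minus WT of the deposited values, with no further scaling. With 1 array per genotype there is no test or error. All 40 members are named. In other lists, genes past 1.5-fold are named, at most 4, or else the 2 of largest absolute difference. The members and lists were chosen with earlier results of these data known. The procedure was tested on simulated data with known shifts. Alternatives were 3 scalings, 3 choices of probe set, 2 filters and 2 thresholds. Software was matplotlib 3.10.9, statsmodels 0.14.6, NumPy 2.4.6 and pandas 2.3.3 under Python 3.11.15.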

Additional observations from a re-analysis of the deposited data

How the results depend on the processing

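Each genotype had 1 array, so leaving out a replicate was not possible. No paired analysis was possible because each genotype is 1 pool with no replicate number. Centring, quantile normalization and removal of a lowess trend (fraction 0.3) moved no member by over 0.0421, changed no sign and changed none of the counts past 1.5-fold. The choice of probe set mattered more. The mean over probe sets took in sets below the filter. With it the S phase minus mitotic gap was -0.0501, and 8 of 39 members changed sign. The probe set of smallest absolute difference was also chosen among all sets, those below the filter included, and 29 members then passed the filter. Their median was 0.0552, and 1 of 14 mitotic genes was at least 1.5-fold higher. Of the 39 members, 12 changed sign, some of them, such as Kif11 and Aurka, at a set below the filter. Over all genes, 383 were then higher and 208 lower past 1.5-fold by this choice, and 491 and 255 by the mean over sets, against 636 and 396. With gene-specific sets, chosen after seeing the data, the S phase median was 0.24, the gap was 0.0092, 2 S phase genes and 1 mitotic gene were at least 1.5-fold higher, and 5 of 38 members changed sign. With the 75th percentile filter 1 mitotic gene was at least 1.5-fold higher. At a lower fold threshold, 0.32 on the log2 scale, 1 S phase gene was higher and 3 lower, and 6 mitotic genes were higher and 0 lower, beside 14.7% and 12.9% of all genes. At 2-fold, 0 mitotic genes were higher. No replicate spread exists, so fixed rules were used. A median, or a member within 1.5-fold, was taken as moved where it changed by at least 0.1 on the log2 scale. A member past 1.5-fold was taken as moved where it no longer passed it in the same direction. A count was taken as moved where it changed by more than 1.5 times, or from or to 0. The causes were not tested. Without detection calls, a difference in genes below the filter, such as Tyms, was not detectable.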

Other observations

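Further lists that bear on proliferation were written after the values of the cell cycle genes had been seen. Of 13 measured p53 target genes, all were above the filter and 0 passed 1.5-fold, with a median difference of -0.05 and 9 of 13 below 0. Plk2 (0.27) and Sesn2 (-0.25, with 0.22 at another set above the filter) lay furthest from 0. Of 11 measured ErbB ligands and receptors, which carry growth signals to the crypt, 7 were above the filter, 0 passed 1.5-fold and the median was 0.11. Ereg, epiregulin, an ErbB ligand, had the largest difference, at 6.20 in the CD36KO pool and 5.67 in the WT pool.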
